A study of Mus musculus with 4 samples.

Results

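The pharyngeal endoderm of the Tbx1 lineage was examined in single-cell RNA-seq libraries of GFP+ DAPI- sorted cells from Swiss Webster mouse embryos. Its cells were chosen by measured values, as barcodes with at least 3 UMIs (unique molecular identifiers, each counting 1 captured transcript) of Epcam, at least 1 UMI over Foxa1, Foxa2 and Pax1, and at most 2 UMIs over the vascular genes Cdh5 and Pecam1. In the E9.5 libraries 440 of 11719 barcodes met these criteria, out of 14243 barcodes in the series, and they are called endoderm cells below. The series holds 4 libraries, 1 for each genotype and stage, made from tissue pooled over several embryos, so no difference between genotypes had a replicate check and no test was made. Genotype and library cannot be told apart.

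Ctrl embryos were Tbx1Cre/+;Rosa26-GFPflox/+ and cKO embryos were Tbx1Cre/flox;Rosa26-GFPflox/+. All of them carried the Cre knock-in at 1 Tbx1 copy, so Ctrl cells were themselves heterozygous for Tbx1, and the Rosa26 reporter marked any cell in which Tbx1Cre had been active, whether or not it still expressed Tbx1. At E9.5 the tissue was the pharyngeal apparatus and heart, and at E8.5 the upper body. The labels name the source as pharyngeal mesoderm, while the cells described here are epithelial. The sex of the embryos was not given. Xist, the transcript of the inactive X chromosome, was at 307 UPM (UMIs per 1000000 UMIs of the same cells) in the Ctrl E9.5 endoderm cells and 824 UPM in the cKO cells, and it differed in the same direction in barcodes with no Epcam UMI (422 and 893 UPM). Eif2s3y, a Y-linked gene, was at 25.7 and 5.13 UPM in the endoderm cells and at 20.6 and 8.93 UPM in barcodes with no Epcam UMI. The part of these differences in the results was not tested.

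The pharyngeal endoderm lines the foregut beneath the arches and folds outwards into the pouches, which later give rise to the thymus, the parathyroids and other glands. Pax1 and Pax9 are paired-box factors of the pouches, the Foxa genes encode pioneer factors of endoderm in general, and Epcam encodes an adhesion molecule of epithelia. The epithelium secretes FGF, SHH and endothelin signals that act on the neighbouring mesoderm and neural crest. Tbx1, a T-box factor, is expressed in this endoderm and in the mesoderm beside it, and pouches form abnormally when it is lost.

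In the Ctrl E9.5 library 367 of 5453 barcodes were endoderm cells, a share of 6.73% (exact 95% interval 6.08 to 7.43), and in the cKO E9.5 library 73 of 6266 were, a share of 1.17% (0.914 to 1.46). The Ctrl share was 5.78 times the cKO share (4.48 to 7.53). All intervals given here cover counting error only, and since the criteria themselves set the shares, these are descriptions. Other Epcam-positive barcodes, which passed the Epcam and vascular limits and had no UMI of Foxa1, Foxa2 or Pax1, made up 6.62% of the Ctrl library (361 barcodes) and 2.04% of the cKO library (128 barcodes), a ratio of 3.24 (2.64 to 4.0). Endoderm cells were therefore 50.4% of the Epcam-positive barcodes in Ctrl (46.7 to 54.1) and 36.3% in cKO (29.7 to 43.4). A share of sorted cells does not give the number of endoderm cells in an embryo.

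Depth was alike in both sets of endoderm cells. They held a median of 19189 UMIs in Ctrl (4379 to 67470) and 18724 in cKO (8317 to 54545), and the summed UMIs were 7284392 and 1558952. In Ctrl, 224 cells were selected through Pax1 alone, 48 through Foxa1 or Foxa2 alone and 95 through both. In cKO these numbers were 48, 10 and 15. At the threshold, 21 Ctrl and 4 cKO cells had exactly 3 Epcam UMIs, and a further 7 Ctrl and 4 cKO barcodes with 2 Epcam UMIs met the other criteria. In Ctrl, the cells with 3 Epcam UMIs had 139 UPM of Pax9, those just outside had 104 UPM, and in cKO the values were 49.7 UPM and 0. Nkx2-3 was at 108 UPM inside and 145 UPM outside in Ctrl and at 149 and 61.9 UPM in cKO, and Sox2 at 144 and 197 UPM and at 199 and 92.9 UPM. Inside and outside the threshold, these genes thus had no common order in Ctrl. No barcode was dropped by the vascular limit. The barcode sequence of 3 Ctrl and 1 cKO endoderm cells also occurred in the other E9.5 library.

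Genes that had not been used to choose the cells were read beside the pharyngeal label. Nkx2-3 and Pyy were listed as its markers with earlier results of these data known, so they are no independent check of it. Nkx2-3, a homeobox factor of pharyngeal endoderm, was at 89.0 UPM in the Ctrl endoderm cells and 60.9 UPM in the cKO cells, against 19.5 and 21.5 UPM in the other Epcam-positive barcodes and 2.12 and 2.49 UPM in barcodes with no Epcam UMI. Pyy, which encodes the peptide YY hormone precursor, was at 174 and 427 UPM, against 68.2 and 49.9 UPM in the other Epcam-positive barcodes. Genes of more caudal endoderm were nearly absent. The 10 liver, pancreas and caudal gut genes, among them Hnf4a, Pdx1, Cdx2 and Alb, summed to 25 UMIs in Ctrl and 3 UMIs in cKO. Sox17, listed as a pan-endoderm factor and not as a caudal gene, was also rare, with 36 and 5 UMIs. Of other cell types, the summed markers of otic tissue (12.6 and 13.5 UPM), notochord (3.84 and 3.21 UPM), neural crest (7.96 and 5.77 UPM), neural tissue (8.37 and 13.5 UPM) and blood (6.31 and 5.77 UPM) were low in both libraries. Surface ectoderm markers summed to 36.7 and 25.0 UPM. Endothelial markers summed to 45.2 and 31.4 UPM, and the vascular limit had dropped no barcode. Mesenchymal and cardiomyocyte markers summed to more, at 318 and 248 UPM and at 70.6 and 211 UPM, and are described below.

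Against the other Epcam-positive barcodes, 25 of 4975 genes with at least 50 UMIs in either set of both libraries had a log2 ratio of at least 1 in both E9.5 libraries, or 0.503%, and 47 had a ratio of at most -1 in both, or 0.945%. Apart from Pax1 and Foxa1, which were among the selecting genes, the genes leading the endoderm side included 3 secreted FGFs. Fgf15 was at 58.3 UPM in Ctrl endoderm cells against 7.87 UPM in the others and at 101 against 4.39 UPM in cKO. Fgf3 was at 70.3 against 11.2 UPM and at 87.2 against 3.59 UPM. Fgf4 was at 18.9 against 3.58 UPM and at 32.7 against 0.399 UPM, the last value being 1 UMI. For Fgf3 and Fgf15 this came from cells with Pax1, since in cells with Foxa1 or Foxa2 alone they were at 12.0 and 6.54 UPM in Ctrl and at 0 UMIs in cKO.

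Pax9 followed, at 137 UPM in Ctrl endoderm cells against 26.7 UPM in the other Epcam-positive barcodes, and at 56.4 against 4.79 UPM in cKO. Edn1, the endothelin 1 ligand that patterns the arches, was at 69.2 against 19.6 UPM and at 44.3 against 8.38 UPM. Vgll2, a vestigial-like cofactor, was at 684 against 200 UPM and at 293 against 46.7 UPM. Nkx2-3, Pcp4, Cldn10, Slc1a3, Mmd and Cxxc4 followed, with log2 ratios between 1.38 and 3.58 over both libraries. Acta2, an actin of smooth muscle, completed the leading genes, but 1 cell of each library held 56.8% of its Ctrl UMIs and 88.6% of its cKO UMIs in the endoderm cells. At the other end, the genes lowest in the endoderm cells were led by neuronal factors. Neurog1 was at 0.137 UPM in Ctrl endoderm cells against 23.9 UPM in the others and at 0.641 against 81.0 UPM in cKO, and Tubb3, a neuronal tubulin, was at 2.33 against 25.6 UPM and at 0.641 against 164 UPM. The ectodermal factors Tfap2a and Foxi2 were among the lowest as well, Foxi2 at 10.7 against 148 UPM and at 12.8 against 171 UPM.

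**Figure D1:**
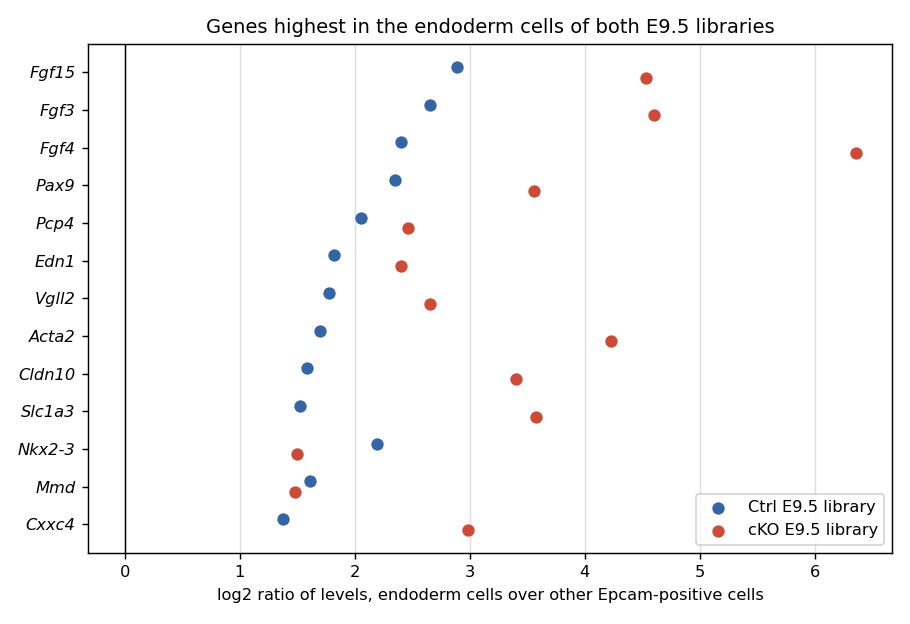
The log2 ratio of the level in the endoderm cells over that in the other Epcam-positive barcodes (x axis) is plotted for 13 genes (y axis), with 1 point per E9.5 library (blue, Ctrl; red, cKO). The leading 15 genes are shown without Pax1 and Foxa1, which were used to select the cells. All points lie right of 1, and Fgf15 and Fgf3 reach 4.53 and 4.60 in the cKO library.

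The genotypes were compared on UMIs summed over the endoderm cells of each library. The log2 ratio of cKO over Ctrl UPM was read against the median over the 7019 genes with at least 100 UMIs in both sets together, which was -0.20, and ratios below are given relative to that median with a 95% counting interval. A gene is called higher or lower where it lay at least 1 from the median. By this rule 98 genes were higher in cKO, or 1.4%, and 156 were lower, or 2.22%. Read against 0 in place of the median, 56 were higher and 299 lower. Most of them did not stand apart from the rest of the library by as much. Of the higher genes 13 (13.3%) and of the lower genes 38 (24.4%) also differed by at least 1 in the same direction from their own ratio in barcodes with no Epcam UMI. Pgk1, a glycolytic enzyme, illustrates the shared kind, at 53.5 and 767 UPM in the endoderm cells and at 58.3 and 813 UPM in the barcodes with no Epcam UMI. The cKO E9.5 library had been counted on a longer gene table than the other libraries, and its part in such differences was not tested.

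**Figure D2:**
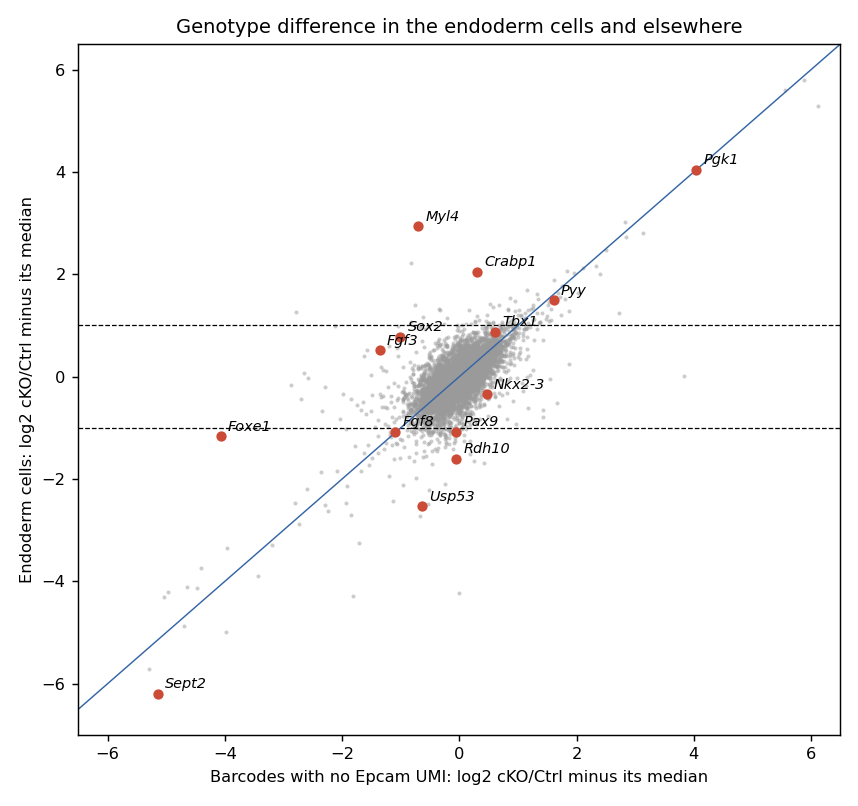
For each of the 7019 genes tested, the log2 ratio of cKO over Ctrl in the endoderm cells (y axis) is plotted against that in barcodes with no Epcam UMI (x axis), each minus its median, with the diagonal in blue and the fold of 1 as dashed lines. Pgk1 and Sept2 lie far out along the diagonal. Crabp1, Pax9, Rdh10 and Usp53 differ in the endoderm cells by more than in barcodes with no Epcam UMI.

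Among transcription factors of the pouches, Pax9 and Tbx3 were lower in the cKO endoderm cells. Of the 18 listed factors 14 were tested, 2 were lower, 0 were higher, and their median lay at -0.36 (the median of all genes is 0 on this scale). Tbx3, a T-box repressor, was at 31.2 UPM in Ctrl and 12.2 UPM in cKO (-1.16, interval -1.91 to -0.48). The 5 highest cells held 15.9% of its UMIs in Ctrl and 52.6% in cKO. Pax9 was at 137 UPM (128 to 145) and 56.4 UPM (45.3 to 69.5), a difference of -1.08 (-1.41 to -0.76). In barcodes with no Epcam UMI it was level at -0.06. In the other Epcam-positive barcodes Pax9 was lower in cKO as well, at 26.7 UPM (187 UMIs) in Ctrl and 4.79 UPM (12 UMIs) in cKO. In cells thinned to 10000 UMIs, which left 357 Ctrl and 71 cKO cells, Pax9 had at least 1 UMI in 68.1% of Ctrl cells (63.0 to 72.9) and 40.8% of cKO cells (29.3 to 53.2), against 17.7% and 15.4% of barcodes with no Epcam UMI. No thinned cKO cell had more than 2 Pax9 UMIs, where the highest Ctrl cell had 8.

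The other pouch factors differed by less than the fold. The NK homeobox gene Nkx2-6 was at 124 and 65.4 UPM (-0.73, -1.04 to -0.43), and Isl1, a LIM homeobox gene, at 130.3 and 72.5 UPM (-0.65, -0.94 to -0.36). Nkx2-3 lay at -0.35 (-0.67 to -0.03), and in thinned cells its share with a UMI was 42.3% (37.1 to 47.6) in Ctrl and 32.4% (21.8 to 44.5) in cKO, intervals that overlap. Eya1, a transcriptional coactivator, was at 47.6 and 43.6 UPM (0.07), and Gata3 at 79.5 and 78.3 UPM (0.18). The organ-specific pouch genes were too rare to compare, with Gcm2 of the parathyroid at 9 and 0 UMIs. Pax1 itself, used in selection, was at 221 and 148 UPM.

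Tbx1 and its partner Ripply3, which encodes a repressor that binds T-box factors, lay above the median within the fold. Tbx1 UMIs were at 122 UPM (114 to 130) in Ctrl and 195 UPM (174 to 218) in cKO, 0.88 above the median (0.69 to 1.07), and Ripply3 was at 81.5 and 114 UPM (0.68, 0.43 to 0.92). The Ripply3 level of cKO rested on few cells, as 5 of them held 63.3% of its UMIs, and 69.2% of thinned Ctrl and 67.6% of thinned cKO cells had none. In the cells selected through Pax1 alone Ripply3 was at 73.7 UPM in Ctrl and 44.8 UPM in cKO. Tbx1 had a UMI in 55.7% of thinned Ctrl cells and 63.4% of thinned cKO cells, with intervals that overlap (50.4 to 61.0 and 51.1 to 74.5). At least 2 Tbx1 UMIs were found in 29.4% of thinned Ctrl cells and 49.3% of thinned cKO cells, a wider difference of 19.9 percentage points. Barcodes with no Epcam UMI, which include Tbx1-expressing mesoderm, had shares of 51.1% and 56.9%. These UMIs count any transcript of the gene and cannot show which exons it retained, so they do not check the deletion. On the GRCm38.p6 assembly RefSeq places Tbx1 on chromosome 16 (18580979 to 18590671), Pax9 on chromosome 12 (56691693 to 56712824) and Crabp1 on chromosome 9 (54764748 to 54773110). Sox2, a factor of foregut progenitors, was at 155 and 232 UPM (0.78, 0.60 to 0.95). The pan-endoderm factors, 4 of 9 tested, had a median of 0.72, but 2 of the 4, Foxa1 and Foxa2, had been used for selection. Foxa2 counted as higher (9.88 and 20.5 UPM), but 46.9% of its cKO UMIs came from 1 cell.

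Genes listed for the thyroid and ventral foregut, Iroquois genes among them, lay mostly below the median. Of 10 listed genes 7 were tested, 2 were lower and 0 higher, with a median of -0.74. Foxe1, a forkhead factor of the thyroid primordium and oral epithelium, was at 69.6 and 26.9 UPM (-1.17, -1.66 to -0.72), and in the other Epcam-positive barcodes it was at 4.86 UPM and 0 UMIs. Barcodes with no Epcam UMI held only 31 and 2 UMIs of it. Among the cKO endoderm cells 5 held 52.4% of the Foxe1 UMIs, and 73.1% of thinned Ctrl and 78.9% of thinned cKO cells had none. Irx1, an Iroquois homeobox gene, was at 93.4 and 39.8 UPM (-1.03, -1.43 to -0.66), and its relatives Irx3 (96.9 and 50.7 UPM) and Irx5 (37.8 and 18.6 UPM) lay at -0.74 and -0.82. Nkx2-5 did not share this direction over all endoderm cells, at 84.3 and 89.2 UPM (0.28). In cKO 5 cells held 56.8% of its UMIs. In cells without a Pyy UMI Nkx2-5 was at 60.7 UPM in Ctrl and 30.1 UPM in cKO. With 1 to 4 Pyy UMIs it was at 116 and 94.4 UPM, and with at least 5 at 226 and 300 UPM. Thyroid commitment could not be compared, since Nkx2-1 had 13 and 0 UMIs and Hhex 31 and 1. The thinned Ctrl cell with the most Irx1 UMIs (8) had no Foxe1 UMI, and that with the most Foxe1 UMIs (10) had no Irx1 UMI. The list median thus mixes genes that need not share cells. Among Hox genes 5 of 13 were tested and none passed the fold in either direction, with a median of 0.24. Hoxb1, a marker of the posterior pharynx, was at 63.4 and 65.4 UPM (0.24, -0.08 to 0.56).

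**Figure D3:**
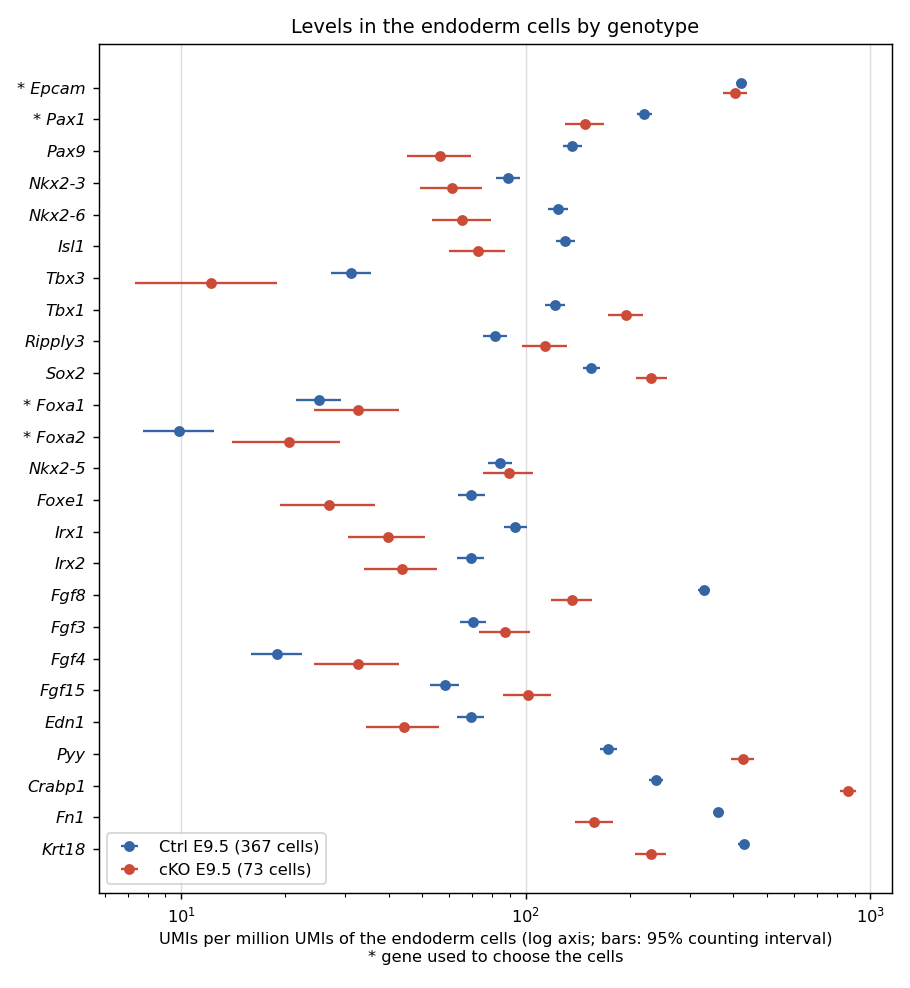
Levels of 25 genes in the endoderm cells are plotted in UPM on a log axis for the Ctrl E9.5 library (blue, 367 cells) and the cKO E9.5 library (red, 73 cells), with 95% counting intervals as bars and an asterisk at the 4 genes used to select the cells. Pax9, Tbx3, Foxe1, Irx1, Fgf8 and Fn1 lie further left in cKO with intervals that do not overlap, and Crabp1, Pyy, Tbx1 and Sox2 lie further right.

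The secreted signals divided. Of 21 listed ligands 13 were tested, with 1 higher, 1 lower and a median of 0.01. Fgf8 was at 329 UPM (316 to 343) in Ctrl and 136 UPM (118 to 156) in cKO (-1.08, -1.29 to -0.87), and its share of thinned cells with a UMI was 65.8% (60.7 to 70.7) and 43.7% (31.9 to 56.0). The same ratio held in barcodes with no Epcam UMI (11.7 and 4.64 UPM, -1.09), but not in the other Epcam-positive barcodes (293 and 311 UPM). Fgf15 and Fgf4, by contrast, had higher UPM levels in cKO and lay just short of the fold, Fgf15 at 58.3 and 101 UPM (0.995, 0.72 to 1.26) and Fgf4 at 18.9 and 32.7 UPM (0.99, 0.49 to 1.46), with Fgf3 at 70.3 and 87.2 UPM (0.51, 0.23 to 0.79). Fgf8 thus lay below the median of all genes in cKO, and Fgf15, Fgf4 and Fgf3 lay above it. In cKO 5 cells held 43.7% of the Fgf15, 40.4% of the Fgf3 and 41.0% of the Fgf8 UMIs. No Fgf15 UMI was found in 75.6% of thinned Ctrl and 69.0% of thinned cKO cells, and no Fgf3 UMI in 64.1% and 60.6%.

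Of the remaining ligands, the chemokine gene Cxcl12 was at 107 and 50 UPM (-0.90, -1.26 to -0.57), Edn1 at 69.2 and 44.3 UPM (-0.45, -0.83 to -0.08), and Bmp7 at 38.4 and 21.8 UPM (-0.62, -1.18 to -0.10). Sema3f, a guidance ligand, was higher at 13.2 and 23.1 UPM (1.01, 0.41 to 1.57). Shh was low in both, at 15.9 and 10.3 UPM (-0.43, -1.29 to 0.33). Secreted antagonists had a median of -0.82 over 5 tested genes of 10, with Fst, which encodes the activin inhibitor follistatin, lower at 18.1 and 7.7 UPM (-1.04, -2.03 to -0.18, but 1.74 without cells carrying 3 or more mesenchyme UMIs) and Sfrp2 level at 59.9 and 50.7 UPM (-0.04).

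Response genes showed no common shift. None of the tested FGF (9), hedgehog (4), WNT (6), BMP (7) or Notch (6) genes passed the fold, and the medians of these lists lay between -0.30 and 0.27. Within the FGF list, Spry2, a feedback inhibitor, was at 59.6 and 103 UPM (0.98, 0.71 to 1.25), whereas Dusp6, a phosphatase of the same feedback, was at 144 and 94.3 UPM (-0.42, -0.68 to -0.17). Ptch1, the hedgehog receptor and target, was at 54.8 and 80.2 UPM (0.75, 0.45 to 1.04). Id4, a BMP-responsive inhibitor of helix-loop-helix factors, was at 70.2 and 119 UPM (0.96, 0.71 to 1.20). Jag1, a Notch ligand, was at 53.3 and 28.9 UPM (-0.69, -1.16 to -0.24).

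Genes of the retinoic acid pathway held both higher and lower members. Of 15 listed genes 8 were tested, with 1 higher, 2 lower and a median of 0.14. Crabp1, which encodes a cellular retinoic acid binding protein, was at 239 UPM (228 to 250) in Ctrl and 863 UPM (817 to 910) in cKO, 2.05 above the median (1.95 to 2.16). It differed nearly as much in the other Epcam-positive barcodes (407 and 1360 UPM, 1.95), but little in barcodes with no Epcam UMI (266 and 277 UPM, 0.30). Thinned cells had a median of 2 Crabp1 UMIs in Ctrl and 3 in cKO, and 17.6% and 39.4% of them had 5 or more. Leaving out the highest cell of each library, which held 13.6% of the cKO UMIs, gave 1.96. The 5 highest cells held 9.14% of the Crabp1 UMIs in Ctrl and 40.5% in cKO. Rdh10, an enzyme that makes retinal, the precursor of retinoic acid, was lower at 22.4 and 6.41 UPM (-1.60, -2.69 to -0.69), and Stra6, a retinol transporter, at 15.4 and 5.77 UPM (-1.21, -2.38 to -0.24). These rest on 10 and 9 UMIs in cKO.

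Among epithelial genes, cingulin was lower and the keratins lay below the median. All 19 junction and keratin genes, Epcam included, were tested, and 1 was lower with a median of -0.13. The basement membrane genes (8 of 10 tested) had no call and a median of -0.17. Cgn, which encodes the tight junction protein cingulin, was at 21.6 and 7.7 UPM (-1.29, -2.27 to -0.44). The keratins Krt18 (429 and 230.3 UPM, -0.70, -0.86 to -0.54) and Krt8 (194 and 104 UPM, -0.70) lay below the median within the fold, whereas Cldn6, a claudin, was level at 399 and 337 UPM (-0.04). Fn1, which encodes fibronectin, was at 362 UPM (348 to 376) and 158 UPM (139 to 179), -0.999 from the median and just short of the fold. Its median in thinned cells was 3 UMIs in Ctrl and 1 in cKO, and 13.7% and 42.3% of the cells had none. Col4a1 of the basement membrane went the other way at 81.7 and 116 UPM (0.71).

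**Figure D4:**
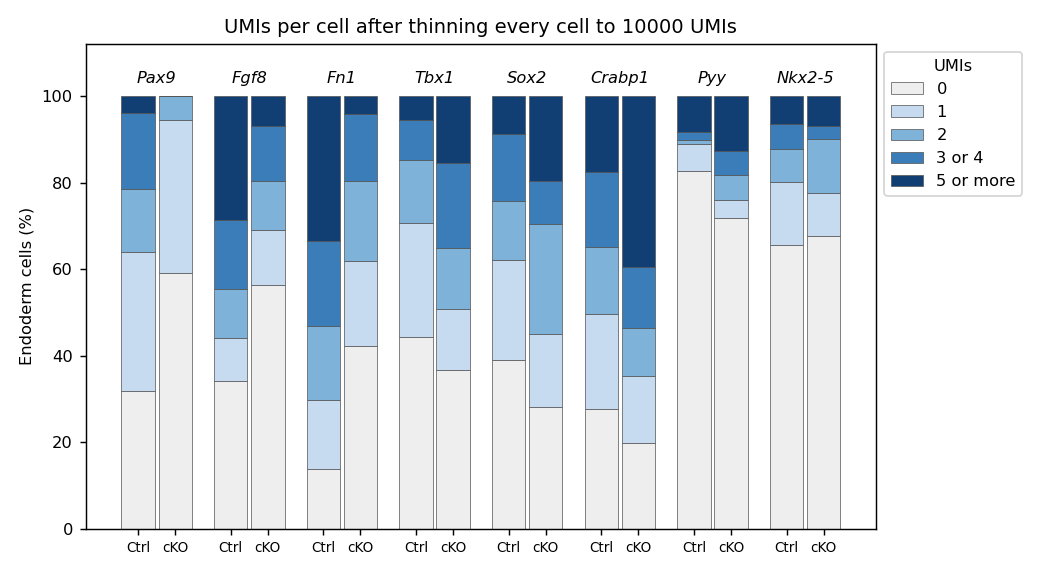
Stacked bars give the percentage of endoderm cells with 0, 1, 2, 3 or 4, or at least 5 UMIs of 8 genes (y axis), after every cell was thinned to 10000 UMIs, for 357 Ctrl and 71 cKO cells of E9.5. Cells without Pax9, Fgf8 or Fn1 were more frequent in cKO, cells with 5 or more Crabp1 UMIs made up 39.4% of cKO against 17.6% of Ctrl, and Pyy was absent from most cells of both.

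Lists of proliferation and stress genes held few calls. None of the 14 S phase or 14 G2/M phase genes passed the fold, with medians of -0.18 and -0.08. The 10 p53 response genes, 7 of them tested, had a median of -0.43 and included 1 lower gene, Phlda3 (13.9 and 3.85 UPM, -1.65, resting on 6 UMIs in cKO), while Cdkn1a was level (23.2 and 19.9 UPM, -0.02). Immediate early and heat shock genes (3 tested) and glycolysis genes (8 tested, with Pgk1 as the 1 higher gene) had medians of -0.21 and 0.03.

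**Figure D5:**
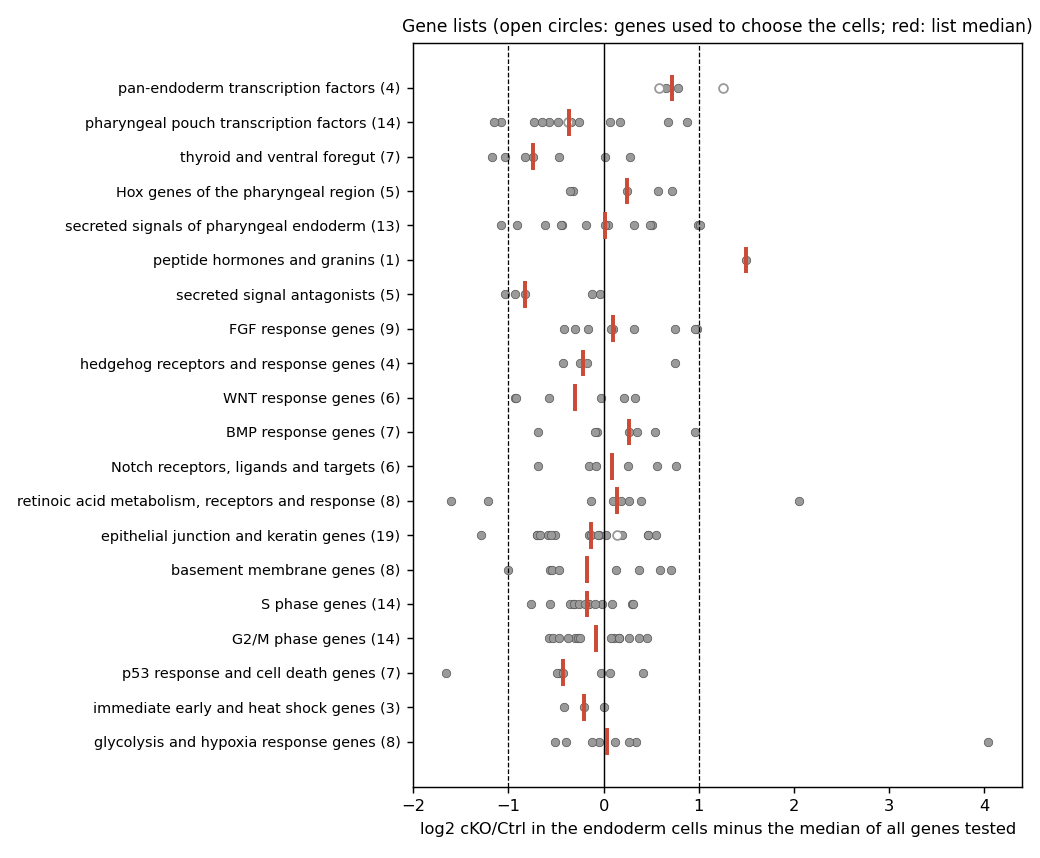
Each point is a tested gene, placed by its log2 ratio of cKO over Ctrl in the endoderm cells minus the median of all genes tested (x axis), grouped by list (y axis, number of genes tested in brackets), with the list median as a red bar and genes used for selection as open circles. The ventral foregut and antagonist lists lie furthest left among lists of more than 1 tested gene, at -0.74 and -0.82, and the proliferation lists centre near 0.

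Pyy marked a small set of cells, and of the 6 listed peptide hormone and granin genes it was the 1 that could be tested. It was at 174 UPM (164 to 183) in Ctrl and 427 UPM (395 to 460) in cKO (1.50, 1.36 to 1.63), but 82.6% of thinned Ctrl cells and 71.8% of thinned cKO cells had no UMI. The shares with a UMI, 17.4% (13.6 to 21.7) and 28.2% (18.1 to 40.1), had overlapping intervals, and barcodes with no Epcam UMI had shares of 1.5% and 4.4%. Cells with at least 5 Pyy UMIs numbered 38 in Ctrl and 14 in cKO and held 95.6% and 97.6% of the Pyy UMIs. In cKO the 5 highest cells held 76.5%. The ratio in barcodes with no Epcam UMI was similar to that in the endoderm cells, at much lower levels (3.68 and 9.51 UPM, 1.61).

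The Pyy-high cells stood apart in other genes as well, in both libraries. Nkx2-5 was at 226 UPM in them and 60.7 UPM in cells without Pyy in Ctrl, and at 300.04 and 30.1 UPM in cKO. Hoxb1 was at 205 against 38.0 UPM in Ctrl and 106 against 56.4 UPM in cKO, and Ripply3 at 150.1 against 69.0 UPM and 188 against 81.7 UPM. Conversely, Pax1 was at 129 against 235 UPM and at 64.8 against 170.1 UPM. The split by Pyy was made on the same cells, so these are descriptions.

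A related division followed the selecting genes. In Ctrl, cells with Foxa1 or Foxa2 but no Pax1 had 61.1 UPM of Shh, 172 UPM of Hoxb1 and 586 UPM of Pyy, and cells with Pax1 alone had 6.49, 44.8 and 111 UPM. In the opposite sense, Fgf3 was at 12.0 UPM in the cells with Foxa1 or Foxa2 alone and 97.2 UPM in those with Pax1 alone, and Fgf15 at 6.54 and 83.5 UPM. In cKO the 10 cells with Foxa1 or Foxa2 alone had no UMI of Fgf3 or Fgf15, which allows up to 3 UMIs, and the 48 cells with Pax1 alone had 122 and 127 UPM. Sox2 and Pax9 differed less between these groups, Pax9 being at 111 and 135 UPM in Ctrl and at 53.5 and 51.0 UPM in cKO. The lower Pax9 of cKO was thus seen in cells selected by either route.

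Of the 10 genes with the largest higher ratios that also stood apart from the barcodes with no Epcam UMI, several rested on single cells. Myl4 and Tnni1 of the cardiac sarcomere were at 7.69 and 51.3 UPM and at 13.6 and 29.5 UPM, but 1 cKO cell held 96.2% and 89.1% of the UMIs. Over all 6 cardiomyocyte markers that cell held 270 of 329 UMIs in cKO, and 1 Ctrl cell held 272 of 514. Without the highest cell of each library Myl4 lay at 0.29, Tnni1 at -1.21, Acta2 at 0.38 and Nexn at 0.01. Both cells met the criteria, with 7 and 5 Epcam UMIs, and their totals of 17950 and 22415 UMIs were near the medians. Whether they were doublets was not tested. Crabp1, Rgcc, Fam210b and Igf1 kept a ratio of at least 1 without their highest cell, at 1.96, 1.32, 1.11 and 1.07, though Rgcc was at -0.28 when Pax1 was left out of the criteria.

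The 10 lowest ratios by the same rule all kept a ratio below -1 without the highest cell of each library. Sept2 (789 and 2 UMIs, -6.20, -9.25 to -4.34) and Gm6133 (341 and 2 UMIs, -4.99, -8.04 to -3.13) were also low in barcodes with no Epcam UMI, at -5.14 and -3.98. Cdh13, a cadherin without a cytoplasmic tail, had 105 and 1 UMIs (-4.29, -9.61 to -1.78). It was lower in cKO elsewhere too, with 36 and 0 UMIs in the other Epcam-positive barcodes and 192 and 59 UMIs (-1.82) in those with no Epcam UMI. Trps1, a GATA-type repressor, had 101 and 1 UMIs (-4.24, -9.55 to -1.72), while in barcodes with no Epcam UMI it was at 9.83 and 8.34 UPM, level with the median. Usp53, a protein of tight junctions, was at 51.2 and 7.7 UPM (-2.54, -3.50 to -1.71), against -0.64 in barcodes with no Epcam UMI and -1.20 in the other Epcam-positive barcodes. Rgs5, a regulator of G protein signalling, was at 32.9 and 5.13 UPM (-2.48, -3.71 to -1.48), and Rspo2, a secreted enhancer of WNT signalling, at 17.0 and 3.21 UPM (-2.21, -3.86 to -0.95). Rgs5 and Rspo2 had similar ratios in the other Epcam-positive barcodes, -1.95 and -2.05. The rest of the 10 were Ppp2cb (204 and 4 UMIs, -3.25), Adgrl3 (106 and 3 UMIs, -2.72) and Rprm (116 and 4 UMIs, -2.43). Vgll2 passed the fold too (684 and 293 UPM, -1.02), and it was lower still in the other Epcam-positive barcodes (200 and 46.7 UPM, -1.89) and in those with no Epcam UMI (88 and 25 UMIs, -1.94).

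Mesenchymal markers ran through both sets of cells. The 9 listed genes summed to 318 UPM in Ctrl and 248 UPM in cKO, mainly through Prrx2 (256 and 140.5 UPM), and 253 Ctrl and 45 cKO cells had at least 3 of their UMIs. Barcodes with no Epcam UMI held 876 and 1053 UPM. Col3a1 (19.5 and 44.9 UPM, 1.40) and Meox1 (13.2 and 26.3 UPM, 1.20) of this list were higher in cKO, and without the cells with 3 or more mesenchyme UMIs Col3a1 lay at -0.32. The summed cardiac markers were at 70.6 and 211 UPM, and 349 of 367 Ctrl and 67 of 73 cKO cells had fewer than 3 UMIs of them. The part of these markers in the other differences was not tested beyond leaving such cells out.

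At E8.5 the same criteria found 9 of 1434 barcodes in Ctrl and 5 of 1090 in cKO, too few to compare genotypes. These cells held 164249 and 124883 UMIs. Epcam had 52 and 38 UMIs, Sox2 17 and 19, Tbx1 22 and 26, and Pax9 11 and 9. Pyy had 75 and 3, and Ripply3 31 and 2.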

How the data were processed

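GFP+ DAPI- cells from 4 samples were loaded on a 10x Chromium with the 3' v2 kit. The authors aligned the reads to mm10 and counted UMIs with Cell Ranger 3.1.0 (submitters' processing notes), and the deposited matrices hold raw UMI counts per gene and barcode, with no normalization. The headers of the E8.5 matrices name another Cell Ranger version. The E9.5 cKO matrix lists 31053 genes and the others 27998. Only the 27514 Ensembl identifiers in all 4 were used, 1027 of which carry another symbol in that matrix, and they hold 99.4% to 99.9% of the UMIs. No column was left without a sample.

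The members and gene lists were chosen with earlier results of these data known, so no list is independent evidence. UMIs were summed over the endoderm cells of each library and divided by all their UMIs (UPM). Ratios had exact conditional binomial intervals, levels Poisson intervals and shares Clopper-Pearson intervals at 95%. A library at 0 was put at 3 UMIs for the call, which concerned 6 tested genes of cKO. Shares of cells used cells thinned to 10000 UMIs, leaving out 10 Ctrl and 2 cKO cells. No doublet caller was run, and no cell was removed as a doublet. The E9.5 libraries share 55 barcode sequences and the E8.5 libraries 4.

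Genes were named by rule: the markers, the highest, lowest and 2 most abundant genes of each list, the 10 highest and 10 lowest ratios that also differed from barcodes with no Epcam UMI, and the 15 leading genes against the other Epcam-positive barcodes. Nkx2-6, Isl1, Eya1, Gata3, Ripply3, Irx5, Cxcl12, Bmp7, Shh, Stra6, Krt8, Cldn6, Cdkn1a, Meox1, Xist, Eif2s3y and the genes low in the endoderm cells were named after their values were seen. The script was tested on simulated data. Python 3.11.15, numpy 2.4.6, scipy 1.17.1, pandas 2.3.3 and, for TMM factors in an alternative, edgeR 4.0.16 were used.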

Additional observations from a re-analysis of the deposited data

Results flagged for a closer look

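For 11 named genes the genotype difference ran in opposite directions in the endoderm cells and in the other Epcam-positive barcodes, with both counting intervals clear of 0. The difference between both sets was not tested, as there is 1 library per genotype. Only named genes were searched, of which 102 were tested. How many of all genes tested would meet the same rule was not counted, so the 11 genes are a description without a background. Of these, Fgf3, Fgf4, Cldn10 and Slc1a3 had been named for leading the comparison of the same sets of barcodes, so their choice was not independent of it. Values are log2 ratios of cKO over Ctrl minus the median of all genes tested, first in the endoderm cells and then in the others. Members of the FGF family were among them, Fgf3 (0.51 and -1.43), Fgf4 (0.99 and -2.95, resting on 1 UMI in the other cKO barcodes) and, the other way round, Fgf8 (-1.08 and 0.30), as was the FGF feedback gene Spry2 (0.98 and -0.84). The factors Tbx1 (0.88 and -0.50), Sox2 (0.78 and -0.49) and Nkx2-5 (0.28 and -0.65) lay above the median in the endoderm cells and below it in the others, all within the fold of 1. For Nkx2-5 the interval in the endoderm cells began at 0.004, and 5 cKO cells held 56.8% of its UMIs. In endoderm cells without a Pyy UMI it was lower in cKO, at 60.7 UPM in Ctrl and 30.1 UPM in cKO. The claudin gene Cldn10 (0.99 and -0.82) and the glutamate transporter gene Slc1a3 (0.71 and -1.34) lay on the same sides. Prrx2, a mesenchymal homeobox gene, lay at -0.67 and 0.22. Tnni1 lay at 1.32 and -1.69, but 1 cell held 89.1% of its UMIs among the cKO endoderm cells.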

How the results depend on the processing

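No paired analysis was possible because each group is 1 library, and for the same reason no replicate could be left out. The Ctrl share over the cKO share lay between 5.57 and 6.57 under the other criteria tried, inside the interval of the main value. The counts of higher and lower genes were 98 and 156. They were 36 and 96 without cells with 3 or more mesenchyme UMIs (3357 genes tested), 56 and 299 when UPM was read against 0, 81 and 188 with TMM factors read against 0, 291 and 465 with a minimum of 30 UMIs, 1186 and 813 with 1 UMI in each library as the minimum, and 62 and 69 when the ratio of barcodes with no Epcam UMI was subtracted. Reading UPM against 0 thus moved the split towards lower genes. Without Pax1 in the criteria (143 Ctrl and 25 cKO cells, 4205 genes tested) 47 genes were higher, and 9 rather than 25 genes were higher against the other Epcam-positive barcodes. The cKO minus Ctrl difference in the share of cells with a UMI stayed within its interval for Nkx2-3, Pyy and Tbx1 without thinning or with at least 2 UMIs, but for Tbx1 it went from 7.64 to 19.9 percentage points with 2 UMIs, near the upper limit.

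Of the 34 named genes past the fold, 22 kept their sign under every alternative. Without Pax1 in the criteria the sign turned for Acta2 (-1.54), Myl4 (-3.13), Myl7 and the cardiomyocyte median (-1.24), Nexn (-0.63), Rgcc (-0.28) and Tnni1 (-2.004). Without cells with 3 or more mesenchyme UMIs it turned for Acta2 (-2.30), Col3a1 (-0.32), Fst (1.74), Myl4 (-1.97), Myl7 and the cardiomyocyte median (-1.49), Nexn (-0.14), Tnni1 (-1.58) and the mesenchyme median (-0.64), which was also at -0.59 under the criteria on thinned cells. With the ratio of barcodes with no Epcam UMI subtracted, Fgf8 was at 0.016, Foxe1 at 2.91, Vgll2 at 0.91, Pyy and the peptide list at -0.11, and the mesenchyme median at -0.53. With a minimum of 1 UMI the surface ectoderm median was 0.057. In alternatives added after the data had been seen, leaving out cells with 3 or more cardiac UMIs put Nexn at -0.27 and Tnni1 at -0.31, and leaving out the highest cell put Tnni1 at -1.21. The cause of these shifts was not tested. Depth limits genes with few UMIs in cKO, where 3 UMIs are 1.92 UPM.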
